A study of Bos taurus with 2 samples.

Results

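Immediate early genes are transcribed within minutes of a growth factor, serum or stress signal, without new protein synthesis, and many of them encode transcription factors that pass the signal on to later genes. FOS and JUN proteins pair into AP-1, a dimer that binds a short DNA element, and the mixture of subunits in a cell affects how that element is used. In muscle precursor cells the family accompanies activation and proliferation, and enzymatic detachment of cells is also known to switch these genes on. Expression of 10 such genes was examined in cultured bovine satellite cells, out of 21867 genes in the feature list. They were chosen by name: FOS, FOSB and FOSL1 of the FOS family, JUN, JUNB and JUND of the JUN family, the AP-1 partner ATF3, the zinc finger factor EGR1, the nuclear protein IER2 and the growth regulator MYC. Each name matched 1 row of the feature list, and each of the 10 mRNAs was detected in both libraries.

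The cells were satellite cells, the muscle stem cells of postnatal skeletal muscle, isolated from the longissimus muscle of 1 male Holstein calf aged 2 weeks and grown for 1 week in DMEM with 10% fetal bovine serum. No treatment or genotype was compared, and 2 single-cell RNA sequencing libraries, called replicates 1 and 2, were made from the same cells on the 10x Genomics platform, which counts each captured molecule once through a unique molecular identifier (UMI). All cells were in serum, and they were detached with trypsin before capture, so there is no group of cells without either. The authors divided the 19096 cells into 15 clusters, and the expression of the 10 genes was compared between these clusters. Both libraries hold cells of 1 suspension from 1 animal, so differences between them arose after the cells were harvested, and variation between animals was not measured.

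Replicate 1 held 9939 cells and 145631299 UMIs, and replicate 2 held 9157 cells and 137818568 UMIs. Only 27 cell barcodes occurred in both. Clusters 7, 13, 14 and 15 were shallow, with a median of 1389, 1631, 2513.5 and 647 UMIs per cell, while the other 11 clusters had medians from 5398.5 to 23011 UMIs. All levels below are UMIs of a gene per 10000 UMIs of all genes, taken over the pooled cells of a cluster, library by library. The authors named clusters 1, 2, 3 and 12 myoblasts, with 3 and 12 differentiating, clusters 4, 5 and 8 satellite cells, and clusters 7 and 9 fibro-adipogenic progenitors (FAP), and left the other 6 unnamed.

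The names were checked against marker mRNAs. MYOG, the regulator of myoblast differentiation, was at 18.6 in cluster 12 and 6.68 in cluster 3, and the 7 myocyte markers summed to 54.8 and 14.8 there against 0.576 to 4.13 in the other deeper clusters. PDGFRA, the FAP marker, was at 1.58 in cluster 9 and 1.48 in cluster 7, and the 3 FAP markers summed to 1.99 and 1.67 against 0.137 to 0.654 elsewhere. Cluster 7 went partly against its name, since its myocyte markers summed to 16.9, and it is called cluster 7 below. Its fibroblast markers COL1A1 and S100A4 summed to 150, against 29.3 in cluster 9 and 97.1 in cluster 8. PAX7 and PAX3, which mark satellite cells, were rare in the clusters named after them, at 0.0112 and 0.0144 in cluster 4, 0.00599 and 0.0214 in cluster 5 and 0.0101 and 0.0280 in cluster 8, and summed to no more than 0.0382 in any cluster. The 3 myoblast markers summed to 1.59 to 26.8, least in cluster 9 and most in cluster 12. The 4 cycling markers separated clusters 2, 4, 5, 6, 7, 9, 10, 11, 13, 14 and 15, at 5.65 to 19.7, from clusters 1, 3, 8 and 12, at 1.16 to 1.87. Over the 15 clusters the fibroblast markers summed to 16 to 150, the smooth muscle markers to 3.23 to 9.13 and the pericyte markers to 0.0717 to 1.71. The endothelial markers CDH5 and PECAM1 stayed at or below 0.0143, the immune markers at or below 0.148, and the glial markers FOXD3 and SOX10 were at 0 in every cluster.

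Over all cells JUN was counted 154472 times and ranked 253 among 16816 detected genes, EGR1 was counted 78024 times, and JUNB, MYC and JUND were counted 23048, 18208 and 17955 times. ATF3, IER2, FOS and FOSL1 followed with 9475, 9470, 5889 and 3463 UMIs, and FOSB had 189. The libraries gave nearly the same level for most of these genes, such as 5.46 and 5.44 for JUN and 0.334 and 0.334 for ATF3. JUND differed most, at 0.591 in replicate 1 and 0.679 in replicate 2. The clusters differed far more than the libraries did, as the panels of levels by cluster show. Among the 11 deeper clusters the ratio of the highest to the lowest level was 8.74 for FOS, 6.16 for ATF3, 4.74 for EGR1 and 4.64 for FOSL1. It was smaller for JUNB (3.34), JUND (3.00), MYC (2.42), IER2 (2.39) and JUN (2.22).

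**Figure D1:**
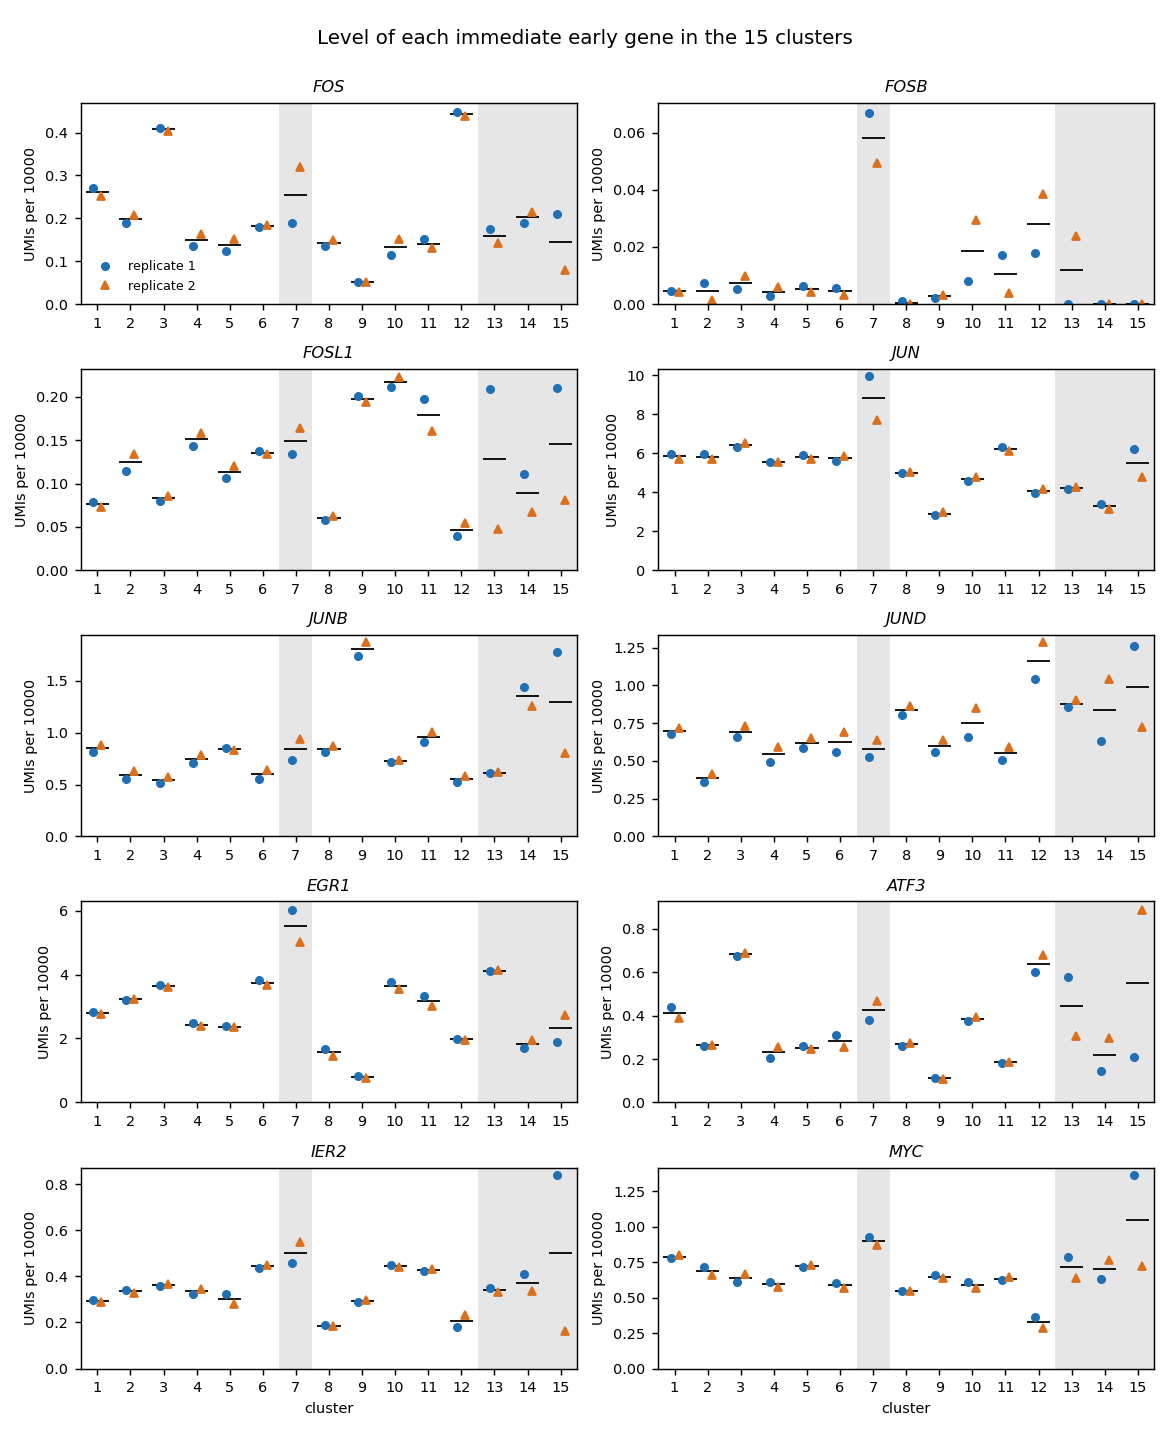
Level of each of the 10 genes in the 15 clusters, in UMIs per 10000 UMIs, with replicate 1 as a circle, replicate 2 as a triangle, their mean as a bar and the shallow clusters 7, 13, 14 and 15 shaded. FOS and ATF3 stand high in clusters 3 and 12 and low in cluster 9, whereas JUNB is highest in cluster 9.

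FOS, the classic AP-1 subunit, was highest in the differentiating clusters. Its level was 0.449 and 0.439 in replicates 1 and 2 of cluster 12 and 0.410 and 0.404 in cluster 3, and both clusters lay apart from every other cluster and from each other. Cluster 1 followed at 0.270 and 0.252, overlapping cluster 7 (0.190 and 0.320), whose libraries differed widely. Clusters 2, 4, 5, 6, 8, 10, 11, 13 and 14 lay between 0.113 and 0.215 in either library, and of the 14 neighbours in the order of all clusters 9 overlapped. Cluster 9, the FAP cluster with full depth, was lowest at 0.0507 and 0.0509. Cluster 15 had 2 and 1 UMIs of FOS and sets no order.

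FOSL1, a FOS relative without the strong activation domain of FOS, was distributed differently. It was highest in the unnamed cluster 10, at 0.211 and 0.223, followed by cluster 9 at 0.201 and 0.195 and cluster 11 at 0.198 and 0.160, of which clusters 9 and 11 overlapped. Of the deeper clusters, clusters 4 (0.144 and 0.159), 6 (0.137 and 0.134), 2 (0.115 and 0.134) and 5 (0.107 and 0.120) came next. Cluster 3 (0.0803 and 0.0852), cluster 1 (0.0786 and 0.0734), cluster 8 (0.0578 and 0.0626) and cluster 12 (0.0390 and 0.0543) were the 4 lowest of them. These 4 are the clusters with few cycling cells, where the cycling markers summed to 1.16 to 1.87, and the part of cycling in the FOSL1 level was not tested. FOSB, which in neurons and other cells rises with FOS, was nearly absent, with 35 of its 189 UMIs in cluster 12, 26 in cluster 3 and 1 in cluster 8. Its level in cluster 12 was 0.0179 and 0.0383 and that in cluster 7 was 0.0669 and 0.0492, the latter from 12 UMIs. In cluster 14 and cluster 15 no FOSB molecule was counted, which allows a level of up to 0.0218 and 0.137 by counting error alone.

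JUN, the main AP-1 partner of FOS, varied least between the deeper clusters. Outside cluster 7 (9.95 and 7.69), its level was highest in cluster 3 (6.31 and 6.53) and cluster 11 (6.32 and 6.11), and clusters 1, 2, 4, 5 and 6 lay between 5.56 and 5.96. It was lower in cluster 8 (4.98 and 5.03), cluster 10 (4.57 and 4.76) and cluster 12 (3.94 and 4.15), and lowest in cluster 9 (2.83 and 2.96). Thus cluster 12, which had the highest FOS level, was among the low clusters for JUN.

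JUNB, a JUN relative that often restrains JUN activity, was highest where FOS was lowest. Cluster 9 had 1.74 and 1.87 and lay above every other deeper cluster, of which cluster 11 was next at 0.912 and 1.01. The shallow clusters 14 (1.44 and 1.26) and 15 (1.78 and 0.806) were also high, and cluster 15 overlapped cluster 9. Clusters 1, 5 and 8 lay between 0.813 and 0.882, overlapping each other. The lowest levels of the deeper clusters were those of cluster 6 (0.554 and 0.642), cluster 2 (0.553 and 0.635), cluster 12 (0.525 and 0.585) and cluster 3 (0.510 and 0.569), which also overlapped.

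JUND, the JUN protein that many cells make without stimulation, was highest in cluster 12 at 1.04 and 1.29. Cluster 8 followed among the deeper clusters at 0.808 and 0.861, and cluster 2 was lowest at 0.361 and 0.415. Replicate 2 was above replicate 1 in 14 of 15 clusters, and 13 of 14 neighbours in the order overlapped. The ranges were compared without matching the libraries, so this shared shift adds to the overlap. Within each library cluster 8 was above cluster 1 (0.676 and 0.717), whereas clusters 1 and 3 (0.658 and 0.729) changed places between libraries. ATF3, which forms dimers with JUN proteins and responds to stress, followed FOS at both ends. It was at 0.675 and 0.689 in cluster 3 and 0.600 and 0.679 in cluster 12, which overlapped, then at 0.439 and 0.389 in cluster 1 and 0.376 and 0.391 in cluster 10. Cluster 11 (0.183 and 0.187) and cluster 9 (0.112 and 0.109) were the lowest.

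EGR1, a zinc finger factor induced through serum response factor, was at 3.82 and 3.68 in cluster 6, 3.75 and 3.54 in cluster 10 and 3.66 and 3.61 in cluster 3, and at 6.02 and 5.03 in the shallow cluster 7 and 4.10 and 4.15 in the shallow cluster 13. It was lower in cluster 12 (1.99 and 1.95) and in cluster 8 (1.68 and 1.44), and again lowest in cluster 9 (0.820 and 0.761). Cluster 9 was therefore the lowest of the 11 deeper clusters for FOS, JUN, EGR1 and ATF3. IER2, a small nuclear protein encoded by a serum-induced gene, was highest among these clusters in clusters 10 (0.449 and 0.443) and 6 (0.438 and 0.452) and lowest in clusters 12 (0.182 and 0.232) and 8 (0.190 and 0.183).

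MYC drives ribosome production and cell growth. Its level was highest among the deeper clusters in cluster 1, at 0.779 and 0.800, and next in cluster 5, at 0.718 and 0.729, which lay apart from each other. Clusters 2, 3, 4, 6, 9, 10 and 11 were within 0.565 to 0.717. Cluster 8 had 0.545 and 0.550, and cluster 12 was lowest at 0.363 and 0.289. The highest of the deeper clusters for MYC, cluster 1, and the lowest, clusters 8 and 12, were thus all among the 4 with few cycling cells.

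Each cluster was then compared with all other cells with edgeR's quasi-likelihood test on the sums per library, with Benjamini-Hochberg adjustment over all genes tested, and the threshold for a call was an adjusted p of 0.05. Of the 150 pairs of gene and cluster, 33 were called higher and 44 lower, or 22% and 29.3%. Over all genes tested in the 15 comparisons these shares were 14.9% and 17.1%. The shares were not matched by UMI count, which affects how easily a gene is called. By that count JUN ranked 253, FOSL1 6532 and FOSB 11302 among 16816 genes, with the others between JUN and FOSL1. The clusters had been made from the same counts, so these tests describe differences beyond the spread of library preparation and are not independent evidence. The comparisons also share cells, since each cluster is among the other cells of the other 14.

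Cluster 9, the FAP cluster, had the largest fold changes of FOS, EGR1 and ATF3 among the 15 clusters. FOS was at 0.0507 and 0.0509 against 0.221 and 0.227 in all other cells, which is a log2 fold change of -2.17 ± 0.076 (SE; edgeR adjusted p = 6.05e-06). EGR1 fell from 3.00 and 2.91 to 0.820 and 0.761, ATF3 from 0.358 and 0.356 to 0.112 and 0.109 and JUN from 5.74 and 5.68 to 2.83 and 2.96. These are log2 fold changes of -1.94 ± 0.060, -1.73 ± 0.064 and -1.01 ± 0.048 (SE), with edgeR adjusted p of 4.07e-06, 7.16e-06 and 1.67e-05. In contrast, JUNB was higher, at 1.74 and 1.87 against 0.680 and 0.745, a log2 fold change of 1.31 ± 0.060 (edgeR adjusted p = 1.57e-05). FOSL1 was also higher, at 0.201 and 0.195 against 0.112 and 0.117 (log2 fold change 0.75 ± 0.065, edgeR adjusted p = 1.94e-04). So the cluster combined low FOS, JUN, EGR1 and ATF3 with high JUNB and FOSL1. With IER2 (-0.23) and FOSB (-1.44, 7 UMIs), 6 of the 10 genes were lower and 2 higher, against 27.7% and 25.3% of all genes tested. The IER2 and FOSB calls were lost with DESeq2, another test for counts, at an adjusted p of 0.0510 and 0.136. MYC (0.659 and 0.639 against 0.647 and 0.636) and JUND (0.562 and 0.642 against 0.594 and 0.682) overlapped the other cells. In a fit with the library as a block, where both sums of a library are matched, JUND was called lower, at an adjusted p of 0.0180 in edgeR.

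The same genes were compared between cluster 9 and the 7 myogenic clusters 1, 2, 3, 4, 5, 8 and 12 as 1 group. FOSL1 and JUNB were higher in cluster 9, where 28.9% of all genes were, and FOS, FOSB, JUN, EGR1 and ATF3 were lower, where 27.6% were. FOS was at 0.0507 and 0.0509 in cluster 9 and 0.238 and 0.244 in the myogenic cells, a log2 fold change of -2.27 ± 0.069 (edgeR adjusted p = 1.43e-05). JUNB was at 1.74 and 1.87 and 0.674 and 0.735, a log2 fold change of 1.33 ± 0.059 (edgeR adjusted p = 4.23e-05). FOSB lost its call with DESeq2 (adjusted p = 0.226), and JUND gained one with the library as a block (log2 fold change -0.11, edgeR adjusted p = 0.0319). The FAP markers summed to 1.99 in cluster 9 and to 0.137 to 0.376 in the myogenic clusters.

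The differentiating clusters 12 and 3 shared higher FOS, ATF3 and JUND and lower JUNB and FOSL1, and EGR1, JUN and IER2 were called in opposite directions. In cluster 12, FOS was at 0.449 and 0.439 against 0.194 and 0.201 in all other cells (log2 fold change 1.35 ± 0.064, edgeR adjusted p = 1.31e-05). ATF3 was at 0.600 and 0.679 against 0.322 and 0.318 (1.18 ± 0.072 on the log2 scale, edgeR adjusted p = 3.73e-05), and JUND at 1.04 and 1.29 against 0.571 and 0.650 (1.11 ± 0.10, edgeR adjusted p = 2.15e-04). FOSB was called higher too, with 11 and 24 UMIs in the libraries (log2 fold change 2.49 ± 0.38, edgeR adjusted p = 0.00202). The remaining 6 genes were lower, namely FOSL1 (-1.25 ± 0.15), MYC (-0.83 ± 0.11), IER2 (-0.54 ± 0.10), JUNB (-0.39 ± 0.069), EGR1 (-0.32 ± 0.052) and JUN (-0.27 ± 0.048), with edgeR adjusted p from 6.83e-04 to 0.00527. Every one of the 10 genes was therefore called in cluster 12, 4 higher and 6 lower, where 24.8% and 29.5% of all genes were. Higher genes made up 45.6% of all calls in cluster 12, and 32.0% without TMM, the normalization that sets the bulk of genes to no change.

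In cluster 3, ATF3 was at 0.675 and 0.689 against 0.283 and 0.287 (log2 fold change 1.39 ± 0.044, edgeR adjusted p = 1.05e-05) and FOS at 0.410 and 0.404 against 0.174 and 0.185 (1.32 ± 0.058, edgeR adjusted p = 2.77e-05). Unlike in cluster 12, EGR1 (0.60 ± 0.045), JUN (0.41 ± 0.040) and IER2 (0.26 ± 0.045) were called higher than in all other cells in cluster 3, along with JUND (0.28 ± 0.081). JUNB (-0.53 ± 0.059) and FOSL1 (-0.49 ± 0.072) were lower. The 6 higher and 2 lower calls compare with 24.5% and 25.4% of all genes, and higher genes made up 49.1% of all calls, or 32.4% without TMM. The JUND call was lost without TMM, without the filter on low counts and with the other clusters weighted equally, and the IER2 call under the last of these. MYC, at 0.611 and 0.664 against 0.654 and 0.633, overlapped the other cells. It was called only with the library as a block (0.12, edgeR adjusted p = 0.00950), a fold change close to the TMM shift of 0.13 in cluster 3, while its mean level was slightly lower than in the other cells.

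Cluster 8, the satellite cell cluster placed by the authors at the root of both myogenic paths, was low in most of the family. EGR1 was at 1.68 and 1.44 against 2.86 and 2.80 in all other cells (log2 fold change -0.80 ± 0.079, edgeR adjusted p = 7.74e-04), FOSL1 at 0.0578 and 0.0626 against 0.125 and 0.128 (-1.02 ± 0.092, edgeR adjusted p = 5.68e-04) and IER2 at 0.190 and 0.183 against 0.342 and 0.345 (-0.83 ± 0.058, edgeR adjusted p = 2.38e-04). FOS (-0.53 ± 0.073), ATF3 (-0.29 ± 0.053) and MYC (-0.20 ± 0.044) were lower by less. FOSB, with 1 UMI in replicate 1 and 0 in replicate 2, was called lower too, a call lost with DESeq2 (adjusted p = 0.0595). Only JUND was called higher, at 0.808 and 0.861 against 0.577 and 0.667 (0.47 ± 0.082, edgeR adjusted p = 0.00620). The 7 lower calls and 1 higher call compare with 23.5% and 22.5% of all genes. With the library as a block JUN was called lower and JUNB higher, at log2 fold changes of -0.08 and 0.10 and edgeR adjusted p of 0.00126 and 0.0467.

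In cluster 1, a myoblast cluster, FOS (0.46 ± 0.060), ATF3 (0.43 ± 0.067), MYC (0.42 ± 0.042) and JUN (0.19 ± 0.037) were higher and FOSL1 (-0.68 ± 0.076) was lower on the log2 scale, with edgeR adjusted p from 0.00135 to 0.0125. Among all genes 14.6% were called higher and 18.8% lower, so that higher genes made up 43.8% of the calls, or 28.9% without TMM. The block on the library added JUNB, JUND and EGR1 as higher and IER2 as lower, at log2 fold changes of 0.15, 0.23, 0.10 and -0.14 and an adjusted p of at most 0.0106 in edgeR. Over all genes the block raised the higher and lower calls from 1912 and 2456 to 3082 and 3431.

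Among the cycling clusters 2, 4, 5, 6 and 11 the genes differed in direction from cluster to cluster. FOS and ATF3 were lower in clusters 4, 5 and 11, at log2 fold changes of -0.54 and -0.59, -0.59 and -0.40, and -0.63 and -0.94. EGR1 was also lower in clusters 4 (-0.20) and 5 (-0.19), but higher in clusters 2 (0.26) and 6 (0.56). JUNB was lower in both of the latter, at -0.53 and -0.45 on the log2 scale, and cluster 2 also had lower JUND (-0.81) and ATF3 (-0.41). IER2 was higher in clusters 6 (0.52) and 11 (0.33), and FOSL1 in clusters 4 (0.35) and 11 (0.55). JUN was higher in clusters 5 (0.14) and 11 (0.15), and MYC in cluster 5 (0.23). These calls came to 1 higher and 3 lower in cluster 2 (15% and 16.8% of all genes), 1 and 3 in cluster 4 (16.3% and 15.3%), 2 and 3 in cluster 5 (12% and 12%), 2 and 1 in cluster 6 (10.6% and 9.48%) and 3 and 2 in cluster 11 (12.8% and 13.7%). Each count lies within 2 genes of what these shares give for 10 genes, so the counts say little about the family. In cluster 5, 1584 genes were called in each direction, and 39.6% of its calls were higher without TMM. The share of higher genes among all calls moved from 52.8% to 41.8% without TMM in cluster 6 and from 48.3% to 58.9% in cluster 11. The JUN call in cluster 5 was lost in 4 of 8 other fits and that in cluster 11 in 1, and the FOSL1 call in cluster 4, the MYC call in cluster 5 and the IER2 call in cluster 11 were lost with the other clusters weighted equally. With the block, JUN and MYC were also called in cluster 2, at log2 fold changes of 0.10 and 0.10 and edgeR adjusted p of 8.63e-05 and 0.0312. With the block, JUNB, JUND and MYC were also called in cluster 4, at log2 fold changes of -0.14, -0.25 and -0.13 and edgeR adjusted p of 7.76e-05, 2.68e-10 and 0.00124. With the block, FOS, FOSL1, JUN, ATF3 and MYC were also called in cluster 6, at log2 fold changes of -0.17, 0.21, 0.13, -0.22 and -0.10 and edgeR adjusted p of 0.0267, 0.0226, 1.36e-08, 1.86e-04 and 0.0352. With the block, JUNB, JUND and EGR1 were also called in cluster 11, at log2 fold changes of 0.21, -0.26 and 0.17 and edgeR adjusted p of 6.52e-05, 1.39e-05 and 2.08e-06. Over all genes, higher and lower calls rose with the block from 1976 and 2203 to 3010 and 3225 in cluster 2. They rose from 2135 and 2013 to 3319 and 3228 in cluster 4, and from 1387 and 1239 to 2840 and 2451 in cluster 6. In cluster 11 they rose from 1670 and 1790 to 2510 and 2660.

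In the unnamed cluster 10, FOSL1 (0.74 ± 0.095), IER2 (0.31 ± 0.068) and EGR1 (0.30 ± 0.055) were higher and FOS (-0.77 ± 0.13), JUN (-0.35 ± 0.053), JUNB (-0.28 ± 0.066) and MYC (-0.25 ± 0.068) lower on the log2 scale, against 16.7% and 21.9% of all genes. Without TMM, the JUNB and MYC calls were lost, and the share of higher genes among all calls moved from 43.3% to 56.7%. The IER2 call was lost with the other clusters weighted equally. FOSB, with 3 and 12 UMIs in the libraries, was called higher only with the block (1.49, edgeR adjusted p = 0.00905).

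Values in the shallow clusters depended on the scaling. In cluster 7 EGR1 was at 6.02 and 5.03 against 2.77 and 2.70 in all other cells, while its fitted log2 fold change was 0.36 ± 0.10 (edgeR adjusted p = 0.0286). JUNB, at 0.736 and 0.943 against 0.783 and 0.844, was called lower after TMM (-0.58, edgeR adjusted p = 0.0156) and had a log2 fold change of 0.06 without it, and the JUND call (-0.75) was lost without it. FOSB was called higher from 12 UMIs (2.53, edgeR adjusted p = 0.00351), and both the FOSB and EGR1 calls were lost when cells under 2000 UMIs were left out. Of all genes, 18.3% were higher and 26.4% lower in cluster 7, and higher genes were 40.9% of all calls with TMM and 74.6% without. In cluster 13 EGR1 was higher (0.48) and JUN (-0.48) and JUNB (-0.52) were lower, where 5.98% and 11.3% of all genes were, and the JUNB call was lost in 4 of 8 other fits. In cluster 14 JUNB was higher (0.82) and JUN (-0.64) and EGR1 (-0.49) were lower, against 3.73% and 4.07% of all genes, and JUND was called higher only with the block (0.52, edgeR adjusted p = 0.00926). The share of higher genes among all calls moved from 34.7% to 47.6% in cluster 13 and from 47.8% to 28.1% in cluster 14 without TMM. In cluster 15 none of the 10 genes was called by edgeR, where 0.039% of all genes were called higher and 0.234% lower. 1 of the 10, EGR1, had an unadjusted p under 0.05, and DESeq2 and the other fits called none. TMM moved the median fold change of all genes by more than 0.1 on the log2 scale in clusters 3 (0.13), 7 (-0.64), 10 (-0.11), 12 (0.18), 13 (-0.11) and 15 (-0.22), and by 0.09 or less in the other clusters.

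**Figure D2:**
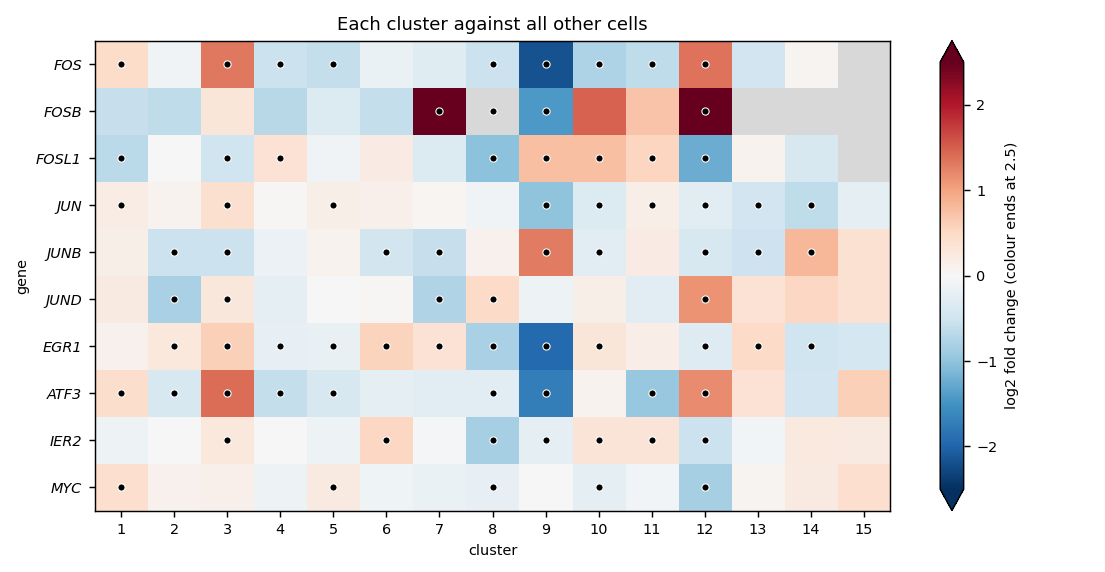
Log2 fold change of each gene (rows) in each cluster against all other cells (columns), with a dot where edgeR's adjusted p was under 0.05 and grey where 3 UMIs or fewer were counted in the cluster. FOS and ATF3 are red in clusters 3 and 12 and blue in cluster 9, and in cluster 15 no gene has a dot.

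The authors arranged the 7 myogenic clusters in 2 paths, from cluster 8 through clusters 1 and 3 to cluster 12 and from cluster 8 through clusters 5 and 4 to cluster 2. Over the 6 steps, 21 of 56 tested pairs of gene and step were higher in the later cluster and 12 lower, or 37.5% and 21.4%. The shares over all genes were 16% and 14.5%, again not matched by UMI count. FOSB did not pass the filter on low counts in 4 of the steps. On the first path 6 of the genes were higher at the step from cluster 8, 5 at the next step and 2 at the last, where 5 were lower. From cluster 8 to cluster 1, FOS went from 0.135 and 0.150 to 0.270 and 0.252 (log2 fold change 0.91 ± 0.10, edgeR adjusted p = 3.04e-04) and EGR1 from 1.68 and 1.44 to 2.82 and 2.77 (0.87 ± 0.072, edgeR adjusted p = 6.10e-05). IER2 (0.68 ± 0.084), ATF3 (0.66 ± 0.092), MYC (0.56 ± 0.058) and JUN (0.26 ± 0.048) were higher as well, and JUND (-0.23 ± 0.062) was lower, where 17.2% and 16.9% of all genes were. The JUND call was lost with DESeq2 and without the highest doublet scores.

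From cluster 1 to cluster 3, ATF3 went from 0.439 and 0.389 to 0.675 and 0.689 (log2 fold change 0.76 ± 0.070, edgeR adjusted p = 2.46e-04) and FOS from 0.270 and 0.252 to 0.410 and 0.404 (0.68 ± 0.068, edgeR adjusted p = 3.33e-04). EGR1 (0.42 ± 0.043), IER2 (0.34 ± 0.061) and JUN (0.17 ± 0.043) were higher, whereas JUNB (-0.62 ± 0.066) and MYC (-0.27 ± 0.054) were lower, where 21.1% and 19.1% of all genes were. FOS, JUN, EGR1, ATF3 and IER2 were thus called higher at both steps. From cluster 3 to cluster 12 the direction turned for part of the group. JUN went from 6.31 and 6.53 to 3.94 and 4.15 (-0.57 ± 0.048, edgeR adjusted p = 8.76e-05), EGR1 from 3.66 and 3.61 to 1.99 and 1.95 (-0.79 ± 0.051, edgeR adjusted p = 2.26e-05) and MYC from 0.611 and 0.664 to 0.363 and 0.289 (-0.87 ± 0.11, edgeR adjusted p = 7.94e-04).

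IER2 (-0.71 ± 0.11) and FOSL1 (-0.73 ± 0.20) were lower in cluster 12 too, the latter not with DESeq2. JUND, from 0.658 and 0.729 to 1.04 and 1.29, was higher (0.84 ± 0.094, edgeR adjusted p = 3.74e-04), as was FOSB (2.01 ± 0.48, from 26 and 35 UMIs). FOS had a log2 fold change of 0.22 ± 0.074 with edgeR adjusted p of 0.0516, which became 0.0194 with the library as a block, and ATF3 had 0.00 ± 0.071. FOS and ATF3, which had been called higher at both earlier steps, were thus not called lower at this one, unlike EGR1, JUN and IER2. Of all genes 18.2% were higher and 15.6% lower at this step. Higher genes were 53.8% of the calls, or 38.0% without TMM. Between these clusters the myocyte markers summed to 14.8 and 54.8, and CDKN1A, which stops the cell cycle, went from 1.71 to 9.61.

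On the other path FOS was called at the last step only and ATF3 at none. From cluster 8 to cluster 5, FOSL1 went from 0.0578 and 0.0626 to 0.107 and 0.120 (log2 fold change 0.92 ± 0.15, edgeR adjusted p = 0.00321), IER2 from 0.190 and 0.183 to 0.324 and 0.280 (0.70 ± 0.11, edgeR adjusted p = 0.00220) and EGR1 from 1.68 and 1.44 to 2.38 and 2.36 (0.60 ± 0.073, edgeR adjusted p = 7.39e-04). MYC (0.41 ± 0.059) and JUN (0.22 ± 0.042) were higher and JUND (-0.43 ± 0.073) lower, where 16.3% and 12.2% of all genes were. FOS (-0.03 ± 0.14) and ATF3 (-0.08 ± 0.086) were not called. EGR1, JUN, IER2 and MYC were called higher, and JUND lower, at both steps that leave cluster 8, which share the cells of that cluster. From cluster 5 to cluster 4 only FOSL1 (0.39 ± 0.11) was higher and MYC (-0.31 ± 0.059) lower, where 9.16% and 7.28% of all genes were, and the FOSL1 call was lost in 3 of 7 other fits. With the library as a block, JUN (-0.09), JUNB (-0.20) and JUND (-0.21) were also called lower, at an adjusted p of 0.0401, 0.00129 and 0.00127 in edgeR. From cluster 4 to cluster 2, EGR1 (0.39 ± 0.040) and FOS (0.40 ± 0.11) were higher and JUND (-0.50 ± 0.10) and JUNB (-0.35 ± 0.082) lower, where 14.5% and 15.7% of all genes were. The FOS call was lost with DESeq2 and without the filter. The block added MYC (0.20) and ATF3 (0.17) as higher and FOSL1 (-0.29) as lower, with edgeR adjusted p of 3.89e-04, 0.0439 and 0.00810.

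**Figure D3:**
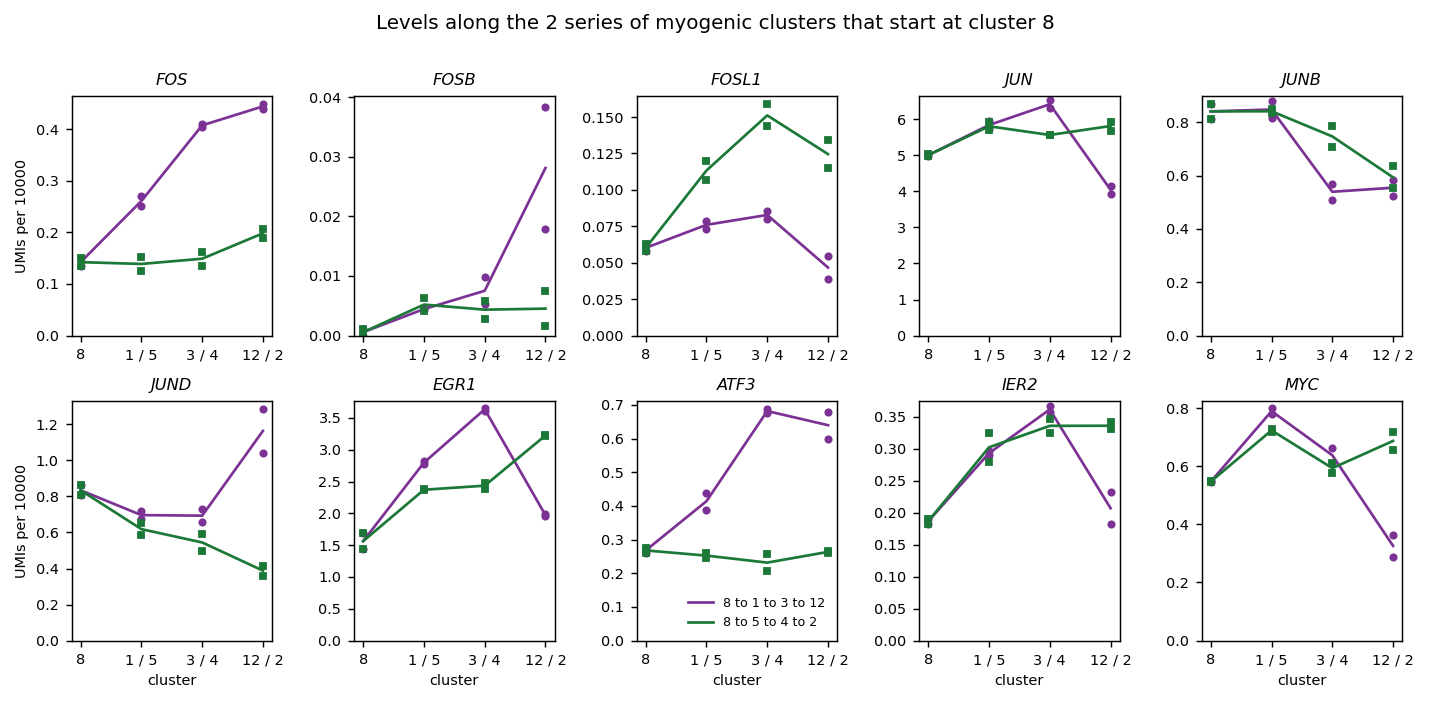
Level of each gene in UMIs per 10000 UMIs along the 2 series of myogenic clusters, 8 to 1 to 3 to 12 (circles) and 8 to 5 to 4 to 2 (squares), with both libraries as points and lines through their means. FOS climbs on the series that ends in cluster 12, and ATF3 climbs to cluster 3 and is not higher in cluster 12. On the other series both stay lower, although FOS is higher in cluster 2 than in cluster 4. JUN, EGR1, IER2 and MYC drop between clusters 3 and 12.

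Over the 11 deeper clusters, log2 levels of FOS and ATF3 had a Pearson correlation of 0.922 (0.778 over all 15), JUN and EGR1 of 0.827 (0.742) and FOSL1 and IER2 of 0.764 (0.710). FOS and JUNB ran opposite, at -0.841 (-0.661), as did FOS and FOSL1, at -0.717 (-0.670), and JUNB and ATF3, at -0.800 (-0.581). JUND and MYC had -0.713 over the deeper clusters but -0.256 over all 15. The points are clusters of the same 2 libraries that also differ in depth, so these values are descriptions. ATF3 was thus the gene nearest to FOS, and JUNB and FOSL1 were the ones most opposed to it.

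Among 9067 genes with 1000 UMIs or more, those most like FOS over the 15 clusters were TIMP2, a metalloproteinase inhibitor (r = 0.931), UGCG, which makes glucosylceramide (0.926), and BIN1, a membrane-bending protein of muscle T-tubules (0.909). ATF3 was most like CNKSR3 (0.935), KLF5 (0.934) and STX4 (0.927). FOSL1 was most like MYBL2, a factor of proliferating cells (0.917), TRIM37 (0.914) and AGPAT5 (0.913). The nearest genes were TTC21B (0.895), BBX (0.890) and LGALS3BP (0.884) for JUN, and SHOX2 (0.874), IFITM3 (0.867) and CKB (0.855) for JUNB. JUND was nearest to RELB (0.876), STX7 (0.834) and CDKN1A (0.806), an inhibitor of cell cycle kinases. For EGR1 they were CTNNAL1 (0.913), GGTA1 (0.897) and MET, the receptor of hepatocyte growth factor (0.890). IER2 had XPO1 (0.861), TFDP1 (0.857) and UIMC1 (0.846), and MYC had SAV1 (0.864), PIBF1 (0.849) and CUL4B (0.843). The values of FOSB, with UBE3A (0.940), EIF4G3 (0.930) and TJAP1 (0.927), rest on 189 UMIs and on the offset of 0.01 added before the logarithm. For none of the 10 genes was another of the 10 among its nearest 3. With 3 places among 9067 genes, and FOSB below the limit of 1000 UMIs, this says little about the family.

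Genes known as AP-1 targets, mostly proteases and secreted factors, were not high in clusters 3 and 12, where FOS was highest. Values of single genes from here on are means of the 2 libraries. In cluster 9, where FOS and JUN were low, they had 9 higher and 3 lower of 15 tested, with a median log2 fold change of 1.32. IL6, an inflammatory cytokine, was at 0.157 against 0.00568 and CXCL8, a chemokine, at 0.0312 against 0.000870 in all other cells, while CD44, the hyaluronan receptor, was at 2.19 against 4.30. In cluster 12, where FOS was highest, they had 0 higher and 11 lower of 14 tested and a median of -1.62. Cluster 3 had 3 higher and 10 lower of 14 tested (median -1.04), among them CCND1 as higher at 0.827 against 0.623, and cluster 8 had 10 higher and 2 lower of 14 tested (median 0.30). Over all genes, 25.3% and 27.7% were higher and lower in cluster 9, 24.8% and 29.5% in cluster 12, 24.5% and 25.4% in cluster 3 and 22.5% and 23.5% in cluster 8, and the median log2 fold changes of all genes there were -0.04, -0.09, -0.00 and 0.01. Cluster 1 against cluster 8 had 2 higher and 10 lower of 13 tested, cluster 3 against cluster 1 1 higher and 8 lower of 12 tested, and cluster 12 against cluster 3 0 higher and 8 lower of 12 tested, where 16.9%, 19.1% and 15.6% of all genes were lower. Their summed level was 43.9 in cluster 9 and 35.8 in cluster 8, but 17.7 in cluster 3 and 10.1 in cluster 12. Over the deeper clusters it was highest where FOS was lowest and lowest where FOS was highest. The shallow cluster 7, which had the highest JUN level, went another way. Its summed level was 78.3, with 8 higher and 1 lower of 14 tested (median 0.99), where 18.3% and 26.4% of all genes were. Cluster 5, where FOS was called lower and JUN higher, had 8 higher and 0 lower of 14 tested (median 0.22), where 12% and 12% of all genes were. JUNB and FOSL1 were both higher in cluster 9 and lower in cluster 12. In cluster 8, however, FOSL1 was lower and JUNB was called higher only with the library as a block. Cluster 9 also differs from the myogenic clusters in cell type, and the part of any of these in the target level was not tested.

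MYC target genes, many of which serve ribosome production, had the direction of MYC at 4 of the 6 steps, but not in every cluster against all other cells. The list of 24 names covers 25 genes because HSPD1 has 2 identifiers. In cluster 1, the highest of the deeper clusters for MYC, 1 was higher and 14 lower of 25 tested (median log2 fold change -0.22). In cluster 9, where MYC overlapped the other cells, 23 were higher and 1 lower (median 0.36), led by SRM, which makes spermidine, at 1.93 against 0.803. Cluster 8 had 1 higher and 21 lower (median -0.50), cluster 3 had 17 and 4, and cluster 12 had 2 and 13. Of all genes 14.6% were higher and 18.8% lower in cluster 1, and between 22.5% and 29.5% in either direction in the other 4. At the steps, targets and MYC moved alike from cluster 8 to cluster 1 (15 higher and 2 lower, MYC higher), from 8 to 5 (19 and 1, MYC higher), from 5 to 4 (0 and 12, MYC lower) and from 3 to 12 (1 and 18, MYC lower). They parted from cluster 1 to cluster 3, where 22 targets were higher and 1 lower while MYC was lower. From cluster 4 to cluster 2 there were 17 higher and 1 lower, with MYC called higher only with the block. Of all genes, 17.2% and 16.9% were higher and lower from cluster 8 to 1, and 16.3% and 12.2% from 8 to 5. These shares were 9.16% and 7.28% from 5 to 4, and 18.2% and 15.6% from 3 to 12. From 1 to 3 they were 21.1% and 19.1%, and from 4 to 2 14.5% and 15.7%. They were not matched by UMI count. Partners and rivals of MYC in its dimer network had 5 higher and 2 lower of 11 tested in cluster 1, 1 higher and 5 lower of 11 tested in cluster 12 and 1 higher and 4 lower of 11 tested in cluster 9. MAX, the obligate partner, was lower in cluster 12 than in cluster 3 (0.0540 against 0.0962), and MXD3 was at 0.0629 against 0.359 in cluster 12 and all other cells.

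**Figure D4:**
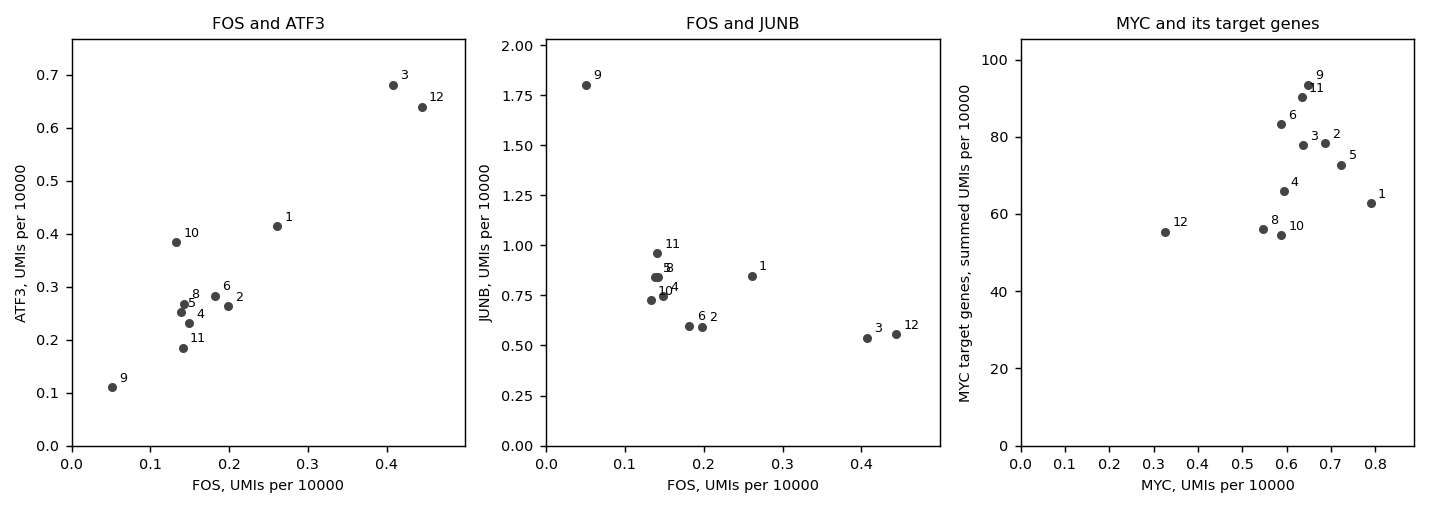
Mean level of 2 libraries in each of the 11 deeper clusters (points, labelled by cluster) in UMIs per 10000 UMIs, for ATF3 against FOS (left), JUNB against FOS (middle) and the summed MYC target genes against MYC (right). Clusters 3 and 12 lie at the upper right and cluster 9 at the lower left of the first panel, while cluster 9 alone holds the upper left of the second.

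The other immediate early genes, such as the NR4A, KLF and EGR factors, were called in both directions in each of the deeper clusters. They had 10 higher and 10 lower of 31 tested in cluster 9, 10 higher and 10 lower of 31 tested in cluster 3, 7 higher and 9 lower of 31 tested in cluster 12, 12 higher and 5 lower of 31 tested in cluster 8, 9 higher and 3 lower of 30 tested in cluster 1 and 1 higher and 14 lower of 30 tested in cluster 2. IER5L, a relative of IER2, was at 1.53 against 0.333 in cluster 9 and all other cells, but at 0.0909 against 0.460 in cluster 12 and 0.102 against 0.493 in cluster 3. TIPARP, a target of the aryl hydrocarbon receptor, was high in the latter clusters, at 1.46 against 0.629 in cluster 12 and 1.51 against 0.545 in cluster 3, as was NFKBIA, the inhibitor of NF-kappa-B, at 0.475 against 0.149 and 0.253 against 0.150. NR4A2, an orphan nuclear receptor, was low there, at 0.00643 against 0.0373 and 0.0110 against 0.0395. BTG1, which restrains proliferation, was at 1.22 in cluster 9 against 2.96 in all other cells. It was at 4.21 in cluster 1 against 2.73 in cluster 8. In clusters 9, 3 and 12, where 25.3% and 27.7%, 24.5% and 25.4%, and 24.8% and 29.5% of all genes were higher and lower, these counts lie near the background and say little about the list. Its medians there were 0.05, -0.07 and -0.10 on the log2 scale. Of all genes 22.5% and 23.5% were called in cluster 8, 14.6% and 18.8% in cluster 1 and 15% and 16.8% in cluster 2. The shallow cluster 7 had 12 higher and 2 lower of 31 tested, where 18.3% and 26.4% of all genes were. The list's median there was 0.47, against -0.12 for all genes. Its summed level was 52.5 in cluster 7 and 19.1 to 29.4 in the other clusters. The shallow cluster 13 had 5 higher and 0 lower of 30 tested, where 5.98% and 11.3% of all genes were.

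Over all genes, 25.3% and 27.7% were higher and lower in cluster 9, 24.8% and 29.5% in cluster 12, 24.5% and 25.4% in cluster 3 and 22.5% and 23.5% in cluster 8. Against these shares, the other AP-1 partners had 1 higher and 4 lower of 7 tested in cluster 9, 2 higher and 3 lower of 7 tested in cluster 12, 1 higher and 4 lower of 7 tested in cluster 3 and 3 higher and 0 lower of 7 tested in cluster 8. FOSL2, the fourth FOS family member, was at 0.385 against 0.213 in cluster 12 and at 0.325 against 0.206 in cluster 3, which is the direction of FOS, while ATF4 was at 3.24 against 5.36 in cluster 12 and 4.05 against 5.39 in cluster 9. The kinases and factors that induce immediate early genes had 4 higher and 3 lower of 21 tested in cluster 9, 7 higher and 3 lower of 21 tested in cluster 12, 5 higher and 4 lower of 21 tested in cluster 3 and 4 higher and 4 lower of 21 tested in cluster 8. MAP2K1 and MAP2K2, the kinases above ERK, were at 1.00 against 0.630 and 1.96 against 1.21 in cluster 12. The phosphatases and Sprouty genes that ERK induces as its own brake had 6 higher and 3 lower of 13 tested in cluster 9, 5 higher and 4 lower of 13 tested in cluster 12, 4 higher and 3 lower of 13 tested in cluster 3 and 2 higher and 2 lower of 13 tested in cluster 8. DUSP6 was at 0.241 against 0.125 in cluster 3 and at 0.0941 against 0.0424 in clusters 1 and 8, DUSP4 at 0.0620 against 0.0198 in cluster 12 and 0.00528 against 0.0233 in cluster 9. DUSP4, at low counts, was thus higher and lower where FOS was. Heat shock and stress genes had 12 higher and 4 lower of 21 tested in cluster 12, 10 higher and 6 lower of 21 tested in cluster 3, 10 higher and 7 lower of 21 tested in cluster 9 and 7 higher and 9 lower of 21 tested in cluster 8. Among them CDKN1A was at 9.61 against 1.21 in cluster 12 and 0.640 against 1.67 in cluster 9, DDIT3 at 0.202 against 0.578 in cluster 12, and HSPA1A at 0.528 against 0.194 in cluster 9. The kinase counts lay below these shares of 21 genes except for the higher genes of cluster 12, and the partner and phosphatase lists hold too few genes for their counts to stand apart from the background. Median log2 fold changes in clusters 9, 12, 3 and 8 were -0.31, -0.36, -0.33 and 0.31 for the partners, -0.02, 0.07, 0.06 and 0.07 for the kinases and factors, 0.18, -0.20, 0.10 and 0.01 for the phosphatases and Sprouty genes and 0.08, 0.25, 0.15 and -0.11 for the heat shock and stress genes. CDKN1A, like FOS, was higher in cluster 12 and lower in cluster 9, whereas HSPA1A was higher where FOS was lower. The part of cell detachment in any of these levels was not tested.

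Single cells were examined after each of 17198 cells had been thinned to 2000 UMIs and the 1898 shallower cells had been left out. A UMI of JUN was then found in 59.7% ± 0.224 (SD, n = 2 libraries) of cells, EGR1 in 37.5% ± 0.783, JUNB in 14.1% ± 0.242, MYC in 12.2% ± 0.141 and JUND in 11.8% ± 0.904. ATF3 was found in 6.61% ± 0.252, IER2 in 6.26% ± 0.401, FOS in 3.98% ± 0.182, FOSL1 in 2.44% ± 0.323 and FOSB in 0.101% ± 0.0634. At full depth, with a median of 14889 UMIs per cell, the shares were 90.1% for JUN, 75.9% for EGR1 and 21.7% for FOS (95% exact binomial interval 21.1% to 22.3%, counting error only). No cell type in this culture is known to lack these mRNAs, so no share can be set as background. Thinned FOS shares followed the levels at both ends, with 8.30% of cells in cluster 12 and 7.18% in cluster 3 but only 0.677% in cluster 9. Between these ends they followed them loosely. Clusters 1, 2 and 6 had 4.13%, 4.02% and 3.93%, at mean levels of 0.261, 0.198 and 0.182. Clusters 4, 5, 8 and 10 had 2.84%, 2.26%, 2.96% and 3.47%, at mean levels of 0.149, 0.139, 0.142 and 0.133. Cluster 11 had 4.14% at a mean level of 0.141. Each of these shares comes from 1 random thinning and has no interval. The full-depth medians of clusters 12, 3, 1 and 9 were 19113, 16482, 12929 and 23011 UMIs. EGR1 was found in 49.0% of thinned cells in cluster 3, 31.3% in cluster 12 and 12.3% in cluster 9, and JUNB in 31.0% in cluster 9 and 9.66% in cluster 3.

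The variance of thinned UMIs over their mean within clusters and libraries, which is near 1 for pure counting error, was 1.37 for JUN, 1.34 for EGR1 and 1.13 for JUNB, and from 0.998 to 1.09 for the others. This ratio grows with the mean, and JUN and EGR1 had the highest thinned means, at 1.09 and 0.563 UMIs per cell against 0.0422 for FOS, so it sets no order between the genes. Single cells held up to 100 UMIs of JUN, 37 of EGR1 and 8 of FOS. At full depth 45 cells had 5 UMIs of FOS or more.

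Pairs of the 10 genes were then counted in the same thinned cells and set against the number that the shares of each cluster and library give for independent genes. Of 35 pairs with 20 expected cells or more, 27 had a ratio above 1, 21 of them in both libraries, and the median ratio was 1.05. Pairs of other genes were not counted, so it is not known whether these values differ from those of genes outside the family. FOS and EGR1 had a ratio of 1.28 (1.33 and 1.23 in replicates 1 and 2), and FOSL1 and JUND of 1.28 (1.10 and 1.42). The first rests on 354 cells with both genes against 276 expected, and the second on only 62 against 48.5. EGR1 and IER2 had 1.21 (1.26 and 1.13), JUND and ATF3 1.18 (1.23 and 1.14), ATF3 and IER2 1.17 (1.06 and 1.31) and FOSL1 and MYC 1.17 (1.22 and 1.12). Among pairs with JUN, the best counted gene, JUN and IER2 had 1.10 (1.13 and 1.07), FOS and JUN 1.09 (1.06 and 1.12) and JUN and EGR1 1.08 (1.08 and 1.08). These pairs were above 1 in both libraries. FOS and ATF3, whose levels ran together across clusters, had 1.07 (1.09 and 1.06) within them. The 4 pairs below 1 in both libraries were JUNB and ATF3 at 0.88 (0.872 and 0.881), JUNB and JUND at 0.92 (0.933 and 0.911), JUND and EGR1 at 0.94 (0.928 and 0.961) and JUN and JUNB at 0.98 (0.982 and 0.983). FOS and JUNB, opposite across clusters, had 1.15 within them, and above 1 in both libraries. FOS and IER2 had 1.53 and 0.491 in the 2 libraries, which differed this far with 44 cells that held both.

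**Figure D5:**
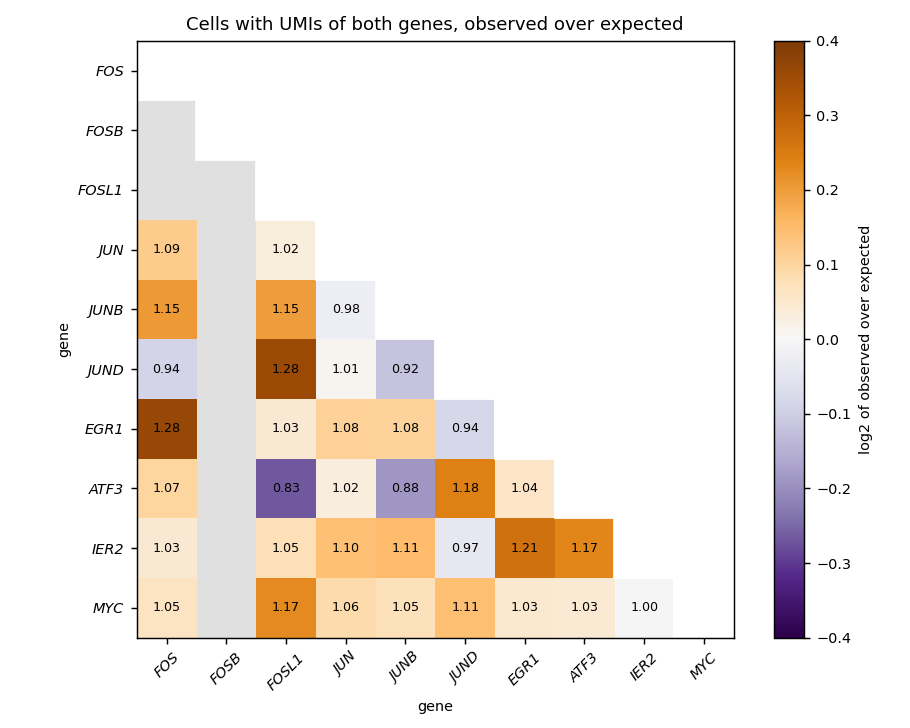
Ratio of the observed number of cells with a UMI of both genes to the number expected from the shares of each cluster and library, for the 35 pairs with 20 expected cells or more, in cells thinned to 2000 UMIs; colour is the log2 of the printed ratio and grey marks pairs with fewer expected cells. FOS with EGR1 and FOSL1 with JUND have the highest ratio, 1.28, from 354 and 62 cells with both genes. The pairs of JUNB with ATF3 and JUND lie below 1.

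Correlations of log-normalized counts across cells, taken within each cluster and library and averaged, again placed EGR1 nearest to FOS. Over 7846 genes, the 5 highest for FOS were EGR1 (r = 0.189), CYR61 (0.103), JUN (0.0953), ANKRD1 (0.0750) and the unnamed ENSBTAG00000015839 (0.0670), where the 99th percentile of all genes was 0.0373. For EGR1 they were CYR61 (0.290), JUN (0.278), IER2 (0.196), FOS (0.189) and HES1 (0.183). JUN had EGR1 (0.278), CYR61 (0.257), KLF6 (0.206), PLK2 (0.171) and CTGF (0.170). CYR61, CTGF and ANKRD1 are known targets of the YAP and serum response factor pathways. MYC had JUN (0.103), CSF1 (0.0970), CYR61 (0.0916), PLK2 (0.0915) and CTGF (0.0914), while its correlation with FOS was 0.00487. ATF3, the nearest member to FOS across clusters, had 0.0393 with FOS across cells, which is also above the 99th percentile of 0.0373. It was counted less than EGR1, at a mean of 0.496 against 4.09 UMIs per cell, so the 2 values are not on equal terms. These correlations are weak, come from sparse counts of cells that share libraries and depth, and are given as descriptions.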

How the data were processed

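The authors processed the reads with Cell Ranger 3.0.2 on ARS-UCD1.2 and deposited UMI counts per gene and cell for both libraries, after the deeper library had been thinned to equal mapped reads per cell. A deposited table of the mean count per cluster gave no cell labels, so the cluster of each of 19096 cells was worked out from those averages and all 252240 gene and cluster sums were recovered. Its fold change and p-value columns hold the authors' own comparisons and were not used. Libraries were told apart by the barcode ending.

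UMI counts were summed per library and cluster and tested with edgeR 4.0.16 (TMM, filter on low counts, quasi-likelihood F-test, Benjamini-Hochberg adjustment, R 4.3.3). Alternatives were DESeq2 1.42.0, no TMM, no filter, a library block, equal weights for clusters, cells assigned by profile, and leaving out shallow cells, likely doublets (Scrublet in scanpy 1.11.5, the top 8% of scores) or a library. Doublets stayed in otherwise. The libraries' deviations correlated at 0.167 to 0.669 over the 15 clusters (median 0.565), so library numbers pair the sums. The fits behind the calls, their SE and adjusted p left this pairing out, and only the fit with the library block used it. In simulated data with 3-fold changes the test recovered 93% of changed genes for cluster 9 against all other cells (12992 genes run) and called 6 unchanged genes. The simulation used a fixed spread for all genes and no pairing of libraries. Smaller changes were not simulated, so their recovery is not known.

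The 10 genes and the related lists were chosen with earlier results of these data known. Genes named besides them were the nearest 3 over clusters, the nearest 5 over cells for FOS, JUN, EGR1 and MYC, and up to 2 called genes per direction with the largest fold change in a list. The MYC target and heat shock lists count HSPD1 once for each of its 2 identifiers. No mitochondrial gene could be matched by name, so its share was not computed. Intervals cover counting error only.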

Additional observations from a re-analysis of the deposited data

How the results depend on the processing

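Of 117 called values, recomputed 1130 times under the alternatives that could give one, 1094 kept the direction and, where tested, the call. These include the values of each library alone, which have no test and so no call to keep. The others were 35 that lost the call and 1 that reversed: JUNB, cluster 7 against all other cells, whose log2 value was 0.0647 without TMM. Calls lost numbered 9 with DESeq2, 7 without the filter, 6 without TMM, 6 of 77 with clusters weighted equally, 3 without likely doublets, 3 without shallow cells and 1 with cells assigned by profile, and the causes were not tested. The replicate block on the library ended no call and gave 46 higher and 54 lower pairs of gene and cluster, against 33 and 44. Across all alternatives these pairs numbered 29 to 46 and 40 to 54, and step pairs 19 to 24 and 10 to 16. The block also raised the calls over all genes in every comparison. In cluster 6 they went from 1387 higher and 1239 lower to 2840 and 2451. Each library alone kept the direction of all 117 values but allows no test. The median co-detection ratio was 1.06 when cells were thinned to 1000 UMIs, 1.03 at 5000 UMIs, and 1.05 to 1.06 with a library left out, and 19 and 15 of 35 pair ratios moved by more than their SD at these depths. Without likely doublets JUN was found in 59.4% of thinned cells and MYC in 12.4%. In cluster 9, where 14.7% of cells had such scores, FOS went from 0.677% to 0.473% and EGR1 from 12.3% to 10.5%. JUNB went from 31.0% to 31.8% there. Leaving out cells under 2000 UMIs gave no value for cluster 15. Depth limits FOSB, at 189 UMIs, and all values of clusters 7, 13, 14 and 15. With 1 animal, no result speaks of other animals.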
